A study of Mus musculus with 4 samples.

Results

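The interferon response genes examined here were 9 genes: Irf7, Irf9, Stat2, Ifit1, Ifit3, Isg15, Bst2, Ifih1 and Rsad2. They were found by gene name in the annotation of the vehicle array and are represented by 11 probes, out of 55681 probes and 22543 genes with a RefSeq symbol on the array. The samples were 3D-retinas, that is retinal tissue grown in floating culture from mouse Nrl-GFP induced pluripotent stem cells, whose rod photoreceptors fluoresce under the rod gene Nrl. Only structures with bright fluorescence had been picked for treatment. The 4 groups received 4-hydroxytamoxifen (4-OHT, an active metabolite of tamoxifen, at 5 µM) together with vitamin E (400 µM), the same 4-OHT dose together with lutein (200 nM), that dose of 4-OHT alone, or ethanol as vehicle. Treatment began on differentiation day 23, and tissue was taken on day 25, when, per the labels, photoreceptors began to degenerate. Each group was 24 pooled 3D-retinas on 1 array, so no difference given here has a replicate check or a p-value.

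Interferons are secreted proteins that cells make on sensing foreign or misplaced nucleic acid. Type I interferon binds the receptor pair Ifnar1 and Ifnar2, whose kinases Jak1 and Tyk2 phosphorylate STAT proteins. Stat2 and Irf9 are part of the resulting complex ISGF3, which binds the interferon-stimulated response element (ISRE) before the start of its target genes. Interferon gamma acts mainly through another element, the GAS. Among the 9 genes, Irf9 and Stat2 are subunits of ISGF3, Irf7 amplifies type I interferon transcription, and Ifih1 (MDA5) senses long double-stranded RNA. Isg15 is a ubiquitin-like modifier, Ifit1 and Ifit3 restrict the translation of foreign RNA, Rsad2 (viperin) is an antiviral radical-SAM enzyme, and Bst2 (tetherin) holds budding virus particles at the cell membrane.

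The probes of the 4 genes that gave signal are given first, then the start regions of these genes. Whether the start regions bear on the differences between arrays was not tested. Each probe is 60 bases long and is written 5′ to 3′ in lower case, as read from the scanner files. The second Isg15 probe is included although it stayed at background on each array.
Irf9: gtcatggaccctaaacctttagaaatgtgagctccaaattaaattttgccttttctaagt
Stat2: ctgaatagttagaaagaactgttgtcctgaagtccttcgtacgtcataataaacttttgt
Bst2: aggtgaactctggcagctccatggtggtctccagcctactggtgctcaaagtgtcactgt
Isg15, probe A_55_P2103698: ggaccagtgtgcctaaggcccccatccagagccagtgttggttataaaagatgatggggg
Isg15, probe A_66_P128537: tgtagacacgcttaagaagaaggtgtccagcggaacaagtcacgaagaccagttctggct
In the array annotation (mouse build mm9) the Irf9 probe lies at chr14:56228806-56228865 on the plus strand and the Stat2 probe at chr10:127729834-127729893 on the plus strand. The Bst2 probe lies at chr8:74058603-74058662 and the first Isg15 probe at chr4:155573649-155573708, both on the minus strand. The second Isg15 probe and the Irf7 probe have no position there. Which exon or UTR a probe falls in was not examined.

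All 9 genes had a start window in the RefSeq table (build GRCm38.p6), which runs from 250 bases before to 50 bases after the annotated start. The ISRE core was searched as GAAANNGAAA on both strands, and the GAS as TTCNNNGAA. An ISRE core was present in 7 of the 9 genes, against 3.99% of 27025 symbols with such a window. Neither of the windows annotated for Irf9, nor that of Irf7, held one. The core is not particular to these genes: 8 of 9 interferon-inducible GTPases, 10 of 18 interferon ligands and 9 of 30 antiviral effectors held it. Among receptors and Janus kinases 0 of 8 did. The windows of Irf9 (first annotated start), Bst2, Isg15 and Stat2 are printed because these genes gave signal and differ in the element. Capitals mark the ISRE core, read as TTTCNNTTTC where it lies on the opposite strand, and each window is written in the direction of its gene.
Irf9, chr14:55603735-55604034, plus strand: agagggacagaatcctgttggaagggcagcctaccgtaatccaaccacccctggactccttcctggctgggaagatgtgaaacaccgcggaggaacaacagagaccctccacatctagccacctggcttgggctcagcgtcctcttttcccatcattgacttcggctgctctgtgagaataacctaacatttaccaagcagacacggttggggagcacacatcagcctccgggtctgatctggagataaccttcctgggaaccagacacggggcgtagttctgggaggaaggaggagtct
Bst2, chr8:71537423-71537722, minus strand: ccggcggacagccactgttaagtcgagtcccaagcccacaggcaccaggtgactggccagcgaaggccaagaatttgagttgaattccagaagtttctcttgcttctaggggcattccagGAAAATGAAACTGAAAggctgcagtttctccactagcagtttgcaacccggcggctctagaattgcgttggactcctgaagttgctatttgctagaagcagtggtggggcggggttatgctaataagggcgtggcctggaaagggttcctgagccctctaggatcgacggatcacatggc
Isg15, chr4:156200769-156201068, minus strand: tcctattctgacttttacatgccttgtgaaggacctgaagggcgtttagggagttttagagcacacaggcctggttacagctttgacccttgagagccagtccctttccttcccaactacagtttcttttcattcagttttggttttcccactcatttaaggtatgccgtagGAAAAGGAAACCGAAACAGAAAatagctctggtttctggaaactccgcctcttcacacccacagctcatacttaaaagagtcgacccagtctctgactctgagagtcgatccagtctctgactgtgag
Stat2, chr10:128270248-128270547, plus strand: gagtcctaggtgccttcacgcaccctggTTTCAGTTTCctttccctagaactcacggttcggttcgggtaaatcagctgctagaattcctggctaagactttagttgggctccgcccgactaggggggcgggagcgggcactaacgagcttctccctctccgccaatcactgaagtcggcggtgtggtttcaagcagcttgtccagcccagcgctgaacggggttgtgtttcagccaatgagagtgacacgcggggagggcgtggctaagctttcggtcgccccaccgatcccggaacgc
Isg15 held 3 overlapping matches in a run of 22 bases that began 78 bases before the start. Bst2 held 2 overlapping matches in a run of 16 bases that began 130 bases before the start, and the only GAS match among the 9 genes overlapped this run by 3 bases. A GAS match occurred in 9.55% of all symbols. Stat2 held 1 ISRE core, which began 222 bases before its start.
Among the genes without signal, Ifit1 and Ifit3 each held a pair of cores, shown here with the bases between them.
Ifit1: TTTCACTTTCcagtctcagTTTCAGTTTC
Ifit3: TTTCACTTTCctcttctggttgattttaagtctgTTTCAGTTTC
Rsad2 and Ifih1 held 1 core each, that of Ifih1 lying after the start. These matches describe the letters in the windows and show no binding.

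**Figure D1:**
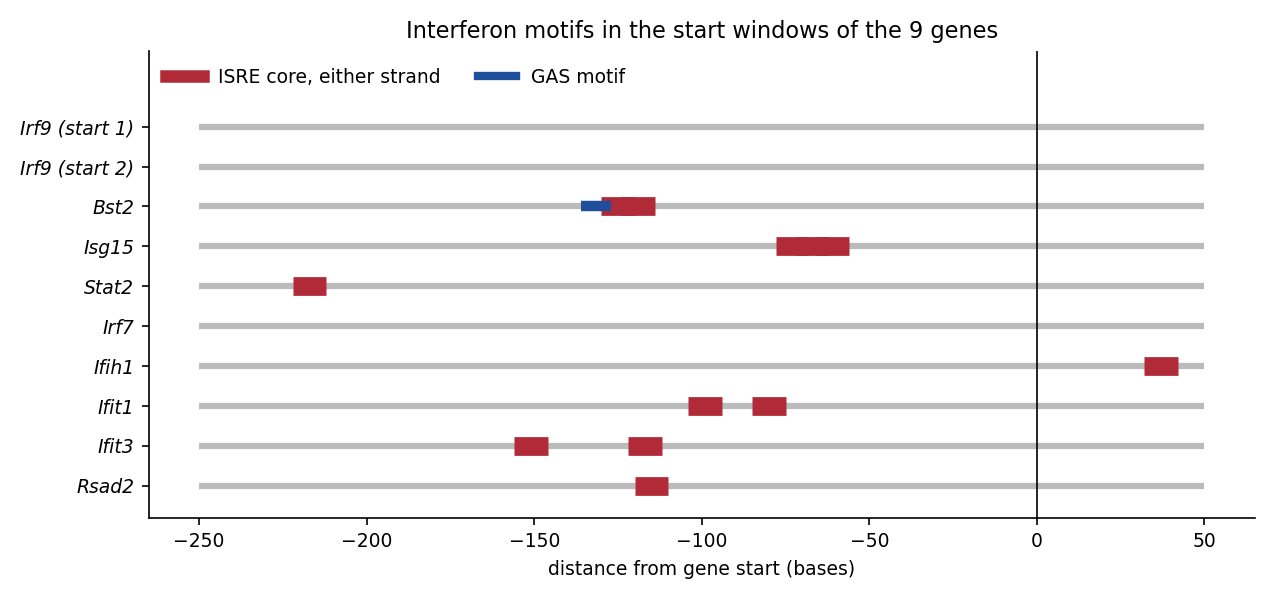
Position of the ISRE core (red) and the GAS motif (blue) in the start window of each gene, with distance from the gene start in bases on the horizontal axis and 1 row per annotated start. Irf9 and Irf7 have no match, and the matches of Bst2 and Isg15 form single blocks before the start.

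Of the 9 genes, 4 (Irf9, Stat2, Isg15 and Bst2) were well above background on all 4 arrays and 5 (Irf7, Ifih1, Ifit1, Ifit3 and Rsad2) on none. "Well above background" is the scanner software's own call for a spot, and a spot without that call on an array is said to be at background there. Among all RefSeq symbols on the array, 61.1% were detected on all 4 arrays and 31.7% on none. A level is given below as log2 of the spot's signal minus the 75th percentile of the array's gene spots, which lay at 544, 551, 498 and 565 signal units for 4-OHT + vitamin E, 4-OHT + lutein, 4-OHT and vehicle. Errors given with a signal are the scanner software's estimate for that spot and cover the spot alone, not the variation between cultures. Levels of different probes are not set against each other.

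**Figure D2:**
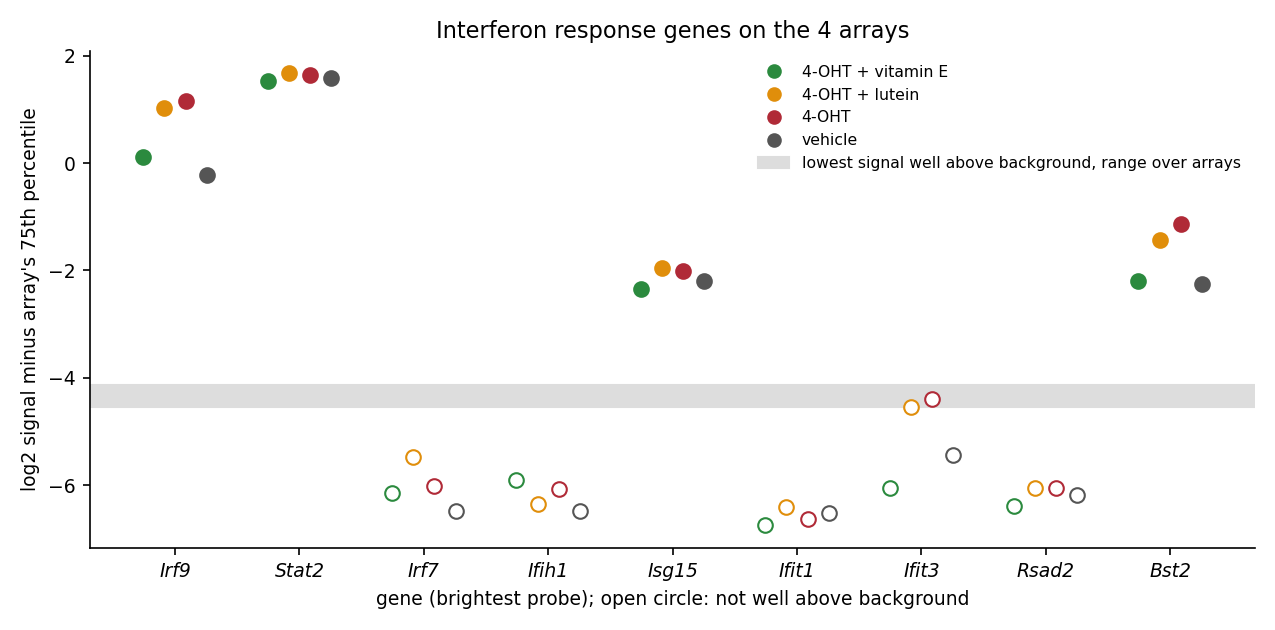
Level of each interferon response gene (brightest probe) on the 4 arrays, as log2 signal minus the array's 75th percentile. Filled circles are well above background, open circles are not, and the grey band spans the lowest well-above-background signals of the 4 arrays, 23.4 to 31.4 signal units. Irf9 and Bst2 sit higher on the 4-OHT and 4-OHT + lutein arrays than on the other two, while Stat2 is nearly level.

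Irf9, the DNA-binding subunit of ISGF3, and Bst2, tetherin, differed most between the arrays among the 4 detected members. The Irf9 spot measured 588 ± 59.0 in 4-OHT + vitamin E, 1130 ± 113 in 4-OHT + lutein, 1118 ± 112 in 4-OHT and 483 ± 48.7 signal units in vehicle. The 4-OHT and 4-OHT + lutein arrays were high, the 4-OHT + vitamin E and vehicle arrays low. The scaled levels were 0.11, 1.04, 1.17 and -0.23 in the same order of groups. Irf9 was thus 2.63-fold higher in 4-OHT than in vehicle, a log2 difference of 1.39 with a spot error of 0.20. It was 2.08-fold lower in 4-OHT + vitamin E than in 4-OHT (log2 difference -1.05). In 4-OHT + lutein it lay 0.13 below 4-OHT on the log2 scale, less than the spot error of 0.20, and 1.26 above vehicle. The level left in 4-OHT + vitamin E was 0.34 above vehicle, with a spot error of 0.21.

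Bst2 measured 119 ± 13.3 in 4-OHT + vitamin E, 205 ± 21.8 in 4-OHT + lutein, 227 ± 23.4 in 4-OHT and 119 ± 14.0 signal units in vehicle. The order of its scaled levels was the same as for Irf9, and the 4-OHT + vitamin E and vehicle arrays, at -2.19 and -2.25, differed by less than the spot error. Bst2 was 2.16-fold higher in 4-OHT than in vehicle (log2 difference 1.11, spot error 0.23). It was 2.08-fold lower in 4-OHT + vitamin E than in 4-OHT (log2 difference -1.06, spot error 0.22). In 4-OHT + lutein it was 0.29 below 4-OHT and 0.82 above vehicle on the log2 scale, the first of which is close to the spot error of 0.21.

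Stat2, the partner of Irf9 in ISGF3, did not share this pattern. Its spot measured 1576 ± 158 in 4-OHT + vitamin E, 1760 ± 176 in 4-OHT + lutein, 1548 ± 155 in 4-OHT and 1709 ± 171 signal units in vehicle. Pairs of arrays differed in the scaled level of Stat2 by 0.14 at most, against a spot error of 0.20 for each pair. The log2 difference of 4-OHT from vehicle was 0.04.

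Isg15, the ubiquitin-like modifier, was detected by 1 of its 2 probes. The first probe measured 106.8 ± 12.2 in 4-OHT + vitamin E, 143 ± 16.1 in 4-OHT + lutein, 123 ± 13.6 in 4-OHT and 123 ± 14.3 signal units in vehicle. The scaled difference of 4-OHT from vehicle was 0.19 on the log2 scale, with a spot error of 0.23, and that of 4-OHT + vitamin E from 4-OHT was -0.33. The second probe lay between 5.4 and 11.1 signal units and stayed at background on each array.

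The other members gave signals near the lower end of the scanner's range. Ifit3 measured 8.21 ± 4.97 in 4-OHT + vitamin E, 23.7 ± 6.78 in 4-OHT + lutein, 23.6 ± 5.36 in 4-OHT and 13.0 ± 6.09 signal units in vehicle. The Ifit3 spots of 4-OHT and 4-OHT + lutein were the highest of the 4, but neither was called well above background, so no fold is given. Irf7 lay between 6.32 and 12.4 signal units, with its highest value in 4-OHT + lutein. The probes of Ifit1, Rsad2 and Ifih1, a pair of probes in the case of Ifih1, lay between 4.70 and 9.09 signal units. These arrays set no order among the groups for those genes.

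A difference of 2-fold was used as a fixed size for counting genes, with no test. For 4-OHT against vehicle, 2 of the 4 detected members (Irf9 and Bst2) reached 2-fold upwards and 0 downwards, and their median log2 difference was 0.65. Over the 15016 RefSeq symbols measured in this comparison the share that reached 2-fold was 6.1% upwards and 3.44% downwards, and the median was -0.12. The difference of Irf9 was exceeded by 502 of these symbols and that of Bst2 by 754. Bst2 fell short of 2-fold under quantile normalization (1.00 on the log2 scale, just under the limit), spike-in scaling (0.96) and another background correction (0.82), while Irf9 stayed between 1.24 and 1.49 over all scalings and probe rules tried.

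For 4-OHT + vitamin E against 4-OHT, 2 of 4 detected members, again Irf9 and Bst2, reached 2-fold downwards and 0 upwards, and the median was -0.69. Of 15062 RefSeq symbols 5.58% reached 2-fold downwards and 1.45% upwards, and their median was 0.16. This comparison and the previous one share the 4-OHT array, so they are not independent. The values of both genes were close to the limit: spike-in scaling gave -0.83 for Irf9 and -0.84 for Bst2, and the other background correction -0.94 and -0.74.

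For 4-OHT + lutein against 4-OHT, 0 of 4 detected members were past 2-fold in either direction and the median was -0.05. Among 14959 RefSeq symbols 0.882% reached 2-fold upwards and 1.68% downwards, and the median was 0.12. Against vehicle, 4-OHT + lutein had 1 of 4 members at least 2-fold higher (Irf9), with a median of 0.54, where 3.41% of 14759 symbols reached 2-fold upwards and 1.5% downwards. Against vehicle, 4-OHT + vitamin E had 0 of 4 members past 2-fold, with a median of -0.01, where 1.11% of 14777 symbols reached 2-fold upwards and 1.28% downwards. Vitamin E and lutein were given at different doses, 400 µM and 200 nM. With that difference in dose, the 4-OHT + vitamin E array was lower than the 4-OHT + lutein array by 0.92 for Irf9 and by 0.77 for Bst2 on the log2 scale, and 2.88% of 14816 symbols reached 2-fold downwards and 0.385% upwards.

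**Figure D3:**
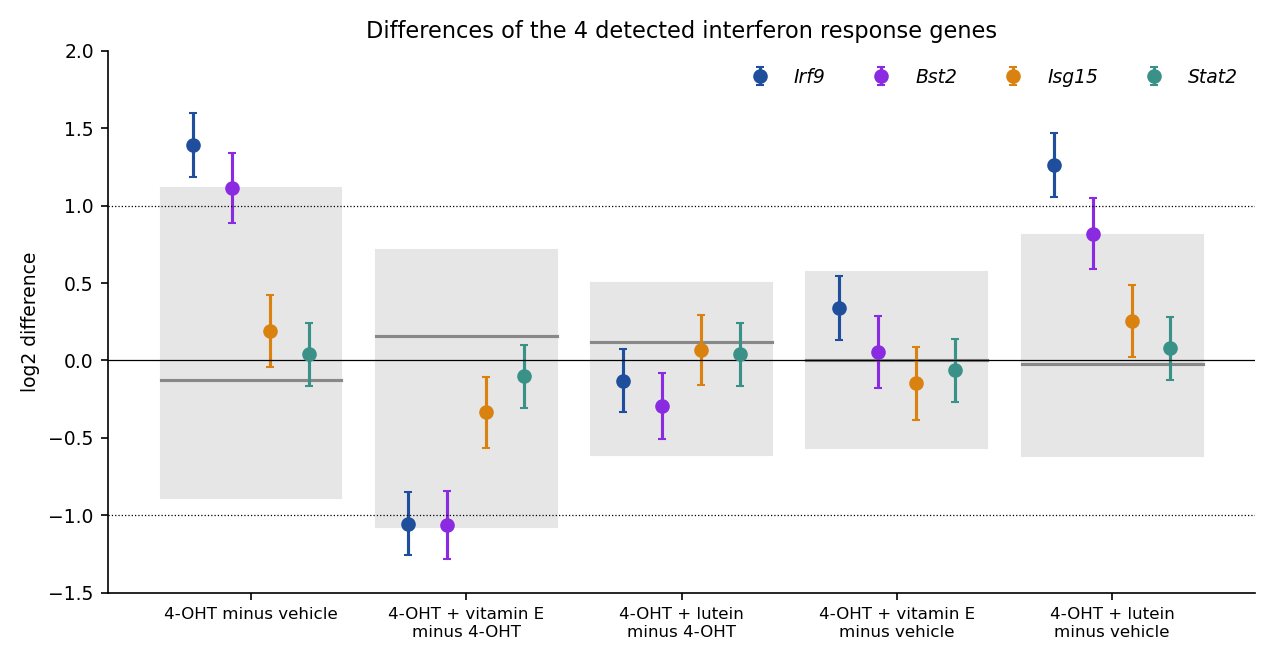
Log2 difference of the 4 detected interferon response genes in 5 comparisons, each with its spot error as the bar. Grey boxes span the 5th to 95th percentile of all RefSeq symbols measured, the grey line is their median, and dotted lines mark 2-fold. Irf9 and Bst2 lie above the dotted line for 4-OHT minus vehicle and below it for 4-OHT + vitamin E minus 4-OHT, whereas Isg15 and Stat2 lie inside the box throughout.

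The genes that neighbour Irf9 on its chromosome did not share its difference. Rnf31, Rec8, Ipo4, Emc9 and Tm9sf1 differed between 4-OHT and vehicle by 0.24, 0.30, 0.32, 0.04 and -0.41 on the log2 scale. Next to Bst2, Plvap had -0.11 and Mvb12a 0.07, while Nxnl1, a photoreceptor gene, had -1.88. By root mean square distance over the 4 arrays, among 13771 symbols detected on all of them, the profiles most like the mean of the 4 detected members were those of Gm6309 (0.008), Per1 (0.015), Lgals1 (0.016), Zbtb2 (0.031) and Clk4 (0.032). Per1 is a circadian clock repressor and Lgals1 encodes galectin-1. Their differences of 4-OHT from vehicle were 0.67 for Per1 and 0.67 for Lgals1. The mean joins unlike profiles, with differences of 1.39 for Irf9, 1.11 for Bst2, 0.19 for Isg15 and 0.04 for Stat2. Taken alone, Irf9 was most like Sesn2 (0.042) and Bst2 most like Cd84 (0.022).

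Other genes of the interferon pathway were followed in 8 lists that exclude the members. These lists were chosen with earlier results of these data known, so their shares describe the lists and are no independent check. They hold 127 genes on the array, of which 85 could be measured for 4-OHT against vehicle. Of these 85 genes, 15 (17.6%) reached 2-fold upwards and 2 (2.35%) downwards, and the median was 0.19, against 6.1%, 3.44% and -0.12 for all symbols. For 4-OHT + vitamin E against 4-OHT, 12 of 86 (14.0%) were lower and 4 (4.65%) higher, with a median of -0.10. All symbols had 5.58% lower, 1.45% higher and a median of 0.16, so both shares were above those of all symbols. The 4 higher genes were the ligand Ifnk and the receptor Ifnlr1, each at background in 4-OHT, Tlr7 (1.67 on the log2 scale) and Irgm2. For 4-OHT + lutein against 4-OHT, 3 of 85 (3.53%) were lower and 2 (2.35%) higher, with a median of 0.05. The corresponding values for all symbols were 1.68%, 0.882% and 0.12.

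**Figure D4:**
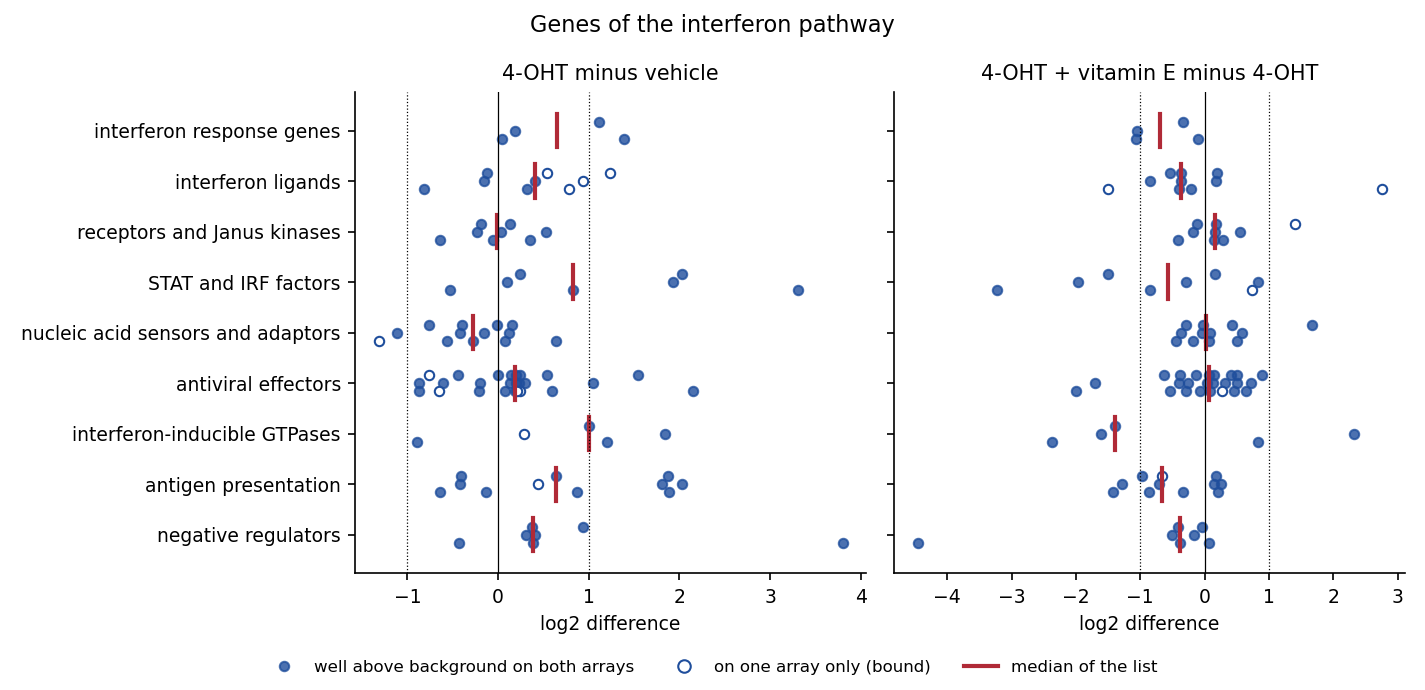
Log2 difference of each measured gene of the interferon response set and of the 8 pathway lists, for 4-OHT minus vehicle on the left and 4-OHT + vitamin E minus 4-OHT on the right. Open circles are bounds for genes detected on 1 of the 2 arrays, red bars are list medians and dotted lines mark 2-fold. On the left, points past 2-fold on the higher side come mainly from the STAT and IRF factors, the effectors, the GTPases and antigen presentation, and no receptor or kinase is past 2-fold.

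Of 16 ligand genes on the array 5 were well above background on all 4 arrays and 6 on none. Over all symbols these shares were 61.1% and 31.7%. Those detected nowhere included Ifnb1 and Ifng, the genes of interferon beta and gamma. Ifna11 was at least 2.35-fold higher in 4-OHT than in vehicle as a bound. It was the 1 ligand of 9 measured past 2-fold, where 6.1% of all symbols were 2-fold higher and 3.44% lower. Interferon alpha genes are near-identical copies, so which copy a probe measured is uncertain. Ifnk was detected in 4-OHT + vitamin E alone, at least 6.73-fold above 4-OHT as a bound. None of the 8 measured receptors and Janus kinases differed by 2-fold between 4-OHT and vehicle, their median being -0.01. Ifnar2 had 0.53, Jak1 -0.23 and Ifngr1, a subunit of the interferon gamma receptor, -0.64 on the log2 scale.

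Among the transcription factors other than the members, 3 of 7 reached 2-fold upwards in 4-OHT against vehicle and 0 downwards. The shares over all symbols in this comparison were 6.1% and 3.44%, here and for the lists below. Irf1, a factor induced by interferon gamma and by NF-kappaB, had levels of -1.06 in 4-OHT + vitamin E, 1.49 in 4-OHT + lutein, 2.16 in 4-OHT and -1.15 in vehicle. It was 9.89-fold higher in 4-OHT than in vehicle and 9.35-fold lower in 4-OHT + vitamin E than in 4-OHT. This rests on 1 of its 2 probes, the other being at background on every array. Stat3, the main factor downstream of LIF and interleukin-6, was 4.08-fold higher in 4-OHT than in vehicle, with 2.81 on the log2 scale by its other probe. Irf8, known from myeloid cells, was 3.80-fold higher. Irf3, the constitutive factor behind interferon beta, had 0.10.

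Among sensors and adaptors 0 of 13 measured genes were higher and 2 lower in 4-OHT than in vehicle. These were Tlr7 (-1.12, by 1 of 3 probes, the other two being at background) and Aim2, as a bound with detection on 1 array. Trim25, which modifies the RNA sensor RIG-I, had -0.77, and Ticam1, the adaptor of Tlr3, 0.64.

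Of 41 antiviral effector genes on the array 16 were detected nowhere, where 31.7% of all symbols were. Of the 25 measured for 4-OHT against vehicle 3 were higher and 0 lower, against 6.1% and 3.44% of all symbols. The exonuclease gene Isg20 was 4.45-fold higher in 4-OHT than in vehicle and 3.98-fold lower in 4-OHT + vitamin E than in 4-OHT, and both of its probes were past 2-fold. Helz2, a helicase gene, was 2.92-fold and Zc3hav1, which encodes the CpG-binding antiviral protein ZAP, 2.06-fold higher in 4-OHT than in vehicle. The Zc3hav1 value rests on 1 of its 2 probes, the other being at background on every array. Oasl2, an oligoadenylate synthetase-like gene, had -0.88.

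Of 12 interferon-inducible GTPases on the array 6 were detected nowhere, against 31.7% of all symbols. Among the 5 measured for 4-OHT against vehicle 3 were higher, namely Gbp6 (3.58-fold), Gbp5 (2.30-fold) and Iigp1 (2.01-fold). Each of these 3 values rests on 1 bright probe while the gene's other probe was at background on all arrays. Ifi47 had -0.90. In 4-OHT + vitamin E against 4-OHT the same 3 genes were at -2.37, -1.60 and -1.39 on the log2 scale, and Irgm2 at 2.32.

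Of the 11 measured antigen presentation genes, 4 were at least 2-fold higher in 4-OHT than in vehicle and 0 were lower by that size. A difference above 0 was seen for 7. Over all symbols 6.1% were higher and 3.44% lower by that size, and 40.0% had a difference above 0. H2-K1 was 4.07-fold, H2-D1 3.70-fold, H2-T23 3.67-fold and B2m, which encodes their common light chain, 3.51-fold higher in 4-OHT than in vehicle. H2 genes are close paralogs, and cross-hybridisation between them cannot be separated here. B2m had levels of 0.41 in 4-OHT + vitamin E, 1.55 in 4-OHT + lutein, 1.83 in 4-OHT and 0.01 in vehicle. Of the 4 genes B2m alone was at least 2-fold lower in 4-OHT + vitamin E than in 4-OHT (2.68-fold), while H2-K1, H2-D1 and H2-T23 had -0.71, -0.97 and -0.87 on the log2 scale. H2-K1 remained 2.49-fold above vehicle in 4-OHT + vitamin E.

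Among the negative regulators 1 of 7 was past 2-fold. Socs3, a feedback inhibitor induced by STAT3, had levels of -1.63 in 4-OHT + vitamin E, 1.83 in 4-OHT + lutein, 2.83 in 4-OHT and -0.97 in vehicle. It was 13.9-fold higher in 4-OHT than in vehicle and 22.0-fold lower in 4-OHT + vitamin E than in 4-OHT. Socs1, the feedback inhibitor best known for interferon signalling, had 0.93 and -0.51 in these comparisons. The 2-fold calls of Ifna11, Gbp5, Gbp6, Iigp1, Helz2, Zc3hav1, Tlr7 and Aim2 for 4-OHT against vehicle were each lost under at least 1 scaling, background or probe rule, with lowest sizes between 0.44 (Iigp1) and 0.86 (Gbp6) on the log2 scale. The same held for Ifna11, Irf8, Helz2, Gbp5, Iigp1 and Tlr7 in 4-OHT + vitamin E against 4-OHT.

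The tissue label was checked with marker genes: all 10 photoreceptor and all 10 other retinal markers were well above background on the 4 arrays. Over all symbols 61.1% were so detected and 31.7% on no array. Of 6 pluripotency markers 4 (Esrrb, Nanog, Tdgf1 and Dppa5a) were also detected on all 4 arrays, and Pou5f1 and Zfp42 on none. Nanog and Tdgf1 each rested on 1 of 3 probes and Esrrb on 1 of 2. All 10 photoreceptor markers were below their vehicle level in 4-OHT, 4 of them past 2-fold, and their summed level over the 75th percentile was 1854 in 4-OHT + vitamin E, 1446 in 4-OHT + lutein, 1139 in 4-OHT and 2214 in vehicle. In RNA of whole 3D-retinas, fewer cells of a type and less RNA per cell cannot be told apart. Of 15 microglia and macrophage markers 7 (Aif1, Cx3cr1, P2ry12, C1qa, C1qc, Ptprc and Tyrobp) stayed at background on each array and 7 were detected on all 4. Cd68, a lysosomal glycoprotein of macrophages, was 5.20-fold higher in 4-OHT than in vehicle, and Itgam had 1.49 by 1 bright probe of 3. The summed level of this list was 126 in 4-OHT + vitamin E, 166 in 4-OHT + lutein, 281 in 4-OHT and 152 in vehicle, most of it from 1 probe of Siglech whose other probe was at background. Of the 10 lymphocyte markers 5 were detected on all 4 arrays and 3 on none, and of the 8 endothelial markers 2 and 5. Cldn5, an endothelial tight-junction gene, was at background in vehicle and at least 4.39-fold higher in 4-OHT than in vehicle. Of 6 lymphocyte markers measured for 4-OHT against vehicle 0 were 2-fold higher and 1 lower, against 6.1% and 3.44% of all symbols. The lower one was Cd8a, a T cell co-receptor, at -1.25 on the log2 scale and -1.16 by its other probe. A difference above 0 was seen for 2 of the 6. These were Cd79a (0.63, by 1 of 2 probes) and Ncr1, detected in 4-OHT alone and at least 1.56-fold above vehicle as a bound. The summed level of the lymphocyte list lay between 10.2 (4-OHT) and 11.5 (vehicle) over the 4 arrays. That of the endothelial list was 21.0 in 4-OHT + vitamin E, 21.7 in 4-OHT + lutein, 23.8 in 4-OHT and 21.4 in vehicle. Most of this endothelial sum came from Kdr, which had a log2 difference of 0.14 between 4-OHT and vehicle. The part of cell composition in the differences of Irf9 and Bst2 was not tested.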

How the data were processed

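RNA of 4 pooled samples was labelled with Cy3 and hybridised to 1-colour mouse arrays, the scans being read by Agilent Feature Extraction (version 10.7.3.1 in the submitters' processing notes). The deposited intensity of each spot had its background subtracted and was not normalized between arrays, per the file headers. The authors' deposited value table holds that signal divided by 1 number per array, as a comparison with the scanner values showed (column medians 0.0736, 0.0847, 0.0949 and 0.0794 for vitamin E, lutein, 4-OHT and vehicle); it served as an alternative. All 4 arrays shared a slide and a scan. The lutein file had been saved at 3 significant digits.

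Of 62976 spots per array 59305 were for genes. Log2 intensities had each array's 75th percentile of gene spots subtracted, outlier spots left out and spots of a probe averaged; the brightest probe stood for a gene. Symbols were updated by RefSeq accession (GRCm38.p6, names only), which changed 0 member names. Genes were compared between arrays when at least 1 of the pair had them well above background, and a dim value was raised to the lowest such signal on its array, giving a bound. Per pathway or marker list, the 4 genes with the largest difference between 4-OHT and vehicle, and the 5 genes most like the members' mean, were to be named, with further genes named for their role; some genes are not reported here. The members and lists were chosen with earlier results of these data known.

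With 1 array per group there was no test, and precision is limited by that number. Over the 260 to 266 probes per array that have 10 spots and were well above background, the spot SD of a log2 difference was 0.16 to 0.19. Simulated data checked the counting. Alternatives were other scalings (quantile, median of detected probes, 8 of 10 spike-in probes), normexp background with offset 50 (limma 3.58.1, R 4.3.3), probe and filter rules, the value table, and limits of 1.5-fold and 4-fold. Other steps used Python 3.11.15, NumPy 2.4.6, pandas 2.3.3 and matplotlib 3.10.9.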

Additional observations from a re-analysis of the deposited data

How the results depend on the processing

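No value reversed its direction past the limit under any alternative. The counts are small, so that 1 gene near 2-fold changes them. Irf9 and Bst2 kept their sign under every alternative for 4-OHT against vehicle and for 4-OHT + vitamin E against 4-OHT. Their 2-fold calls did not hold under all of them, as given above. Scaling to spike-in probes moved all genes by -0.16 for 4-OHT against vehicle and by 0.22 for 4-OHT + vitamin E against 4-OHT (median, log2). With these shifts, which are the same for every gene, the difference of Stat2 turned its sign in both comparisons, to -0.12 for 4-OHT against vehicle and to 0.12 for 4-OHT + vitamin E against 4-OHT. Averaging both Isg15 probes takes in one at background, so its value of 0.28 for 4-OHT + vitamin E against 4-OHT gives no direction. Low signal limits Irf7, Ifih1, Ifit1, Ifit3 and Rsad2, for which no fold could be given. No paired analysis was possible because there was 1 array per group, and for the same reason no replicate could be left out. The cause of each move was not tested, except that other limits count other sizes and stricter filters leave fewer genes.

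Below, the setting stands in parentheses: quantile normalization, spike-in scaling, normexp background correction, the mean of a gene's probes (probe mean), detection required on both arrays (both-array), no filter on dim probes (no filter), and the size limits of 1.5-fold and 4-fold in place of 2-fold. Values given are those outside 1.5 times the reported count or beyond the spot error of the reported median. For 4-OHT against vehicle, the number of interferon response genes that reached the limit upwards, 2 as reported, became 1 (quantile, spike-in, normexp) and 0 (4-fold), while their median log2 difference, 0.65 as reported, became 0.41 (no filter). The number of pathway genes that reached the limit upwards, 15 as reported, became 23 (1.5-fold) and 5 (4-fold), and downwards, 2 as reported, became 7 (quantile, no filter), 5 (spike-in), 1 (normexp, probe mean, both-array), 12 (1.5-fold) and 0 (4-fold). The percentage of all symbols that reached the limit upwards, 6.1 as reported, became 3.4 (normexp), 12.3 (1.5-fold) and 1.39 (4-fold), and downwards, 3.44 as reported, became 5.77 (spike-in), 1.83 (normexp), 15 (1.5-fold) and 0.300 (4-fold). For 4-OHT + vitamin E against 4-OHT, the number of interferon response genes that reached the limit downwards, 2 as reported, became 1 (quantile) and 0 (spike-in, normexp, 4-fold), while their median log2 difference, -0.69 as reported, became -0.48 (spike-in), -0.49 (normexp) and -0.33 (no filter). The number of pathway genes that reached the limit upwards, 4 as reported, became 8 (quantile), 7 (spike-in, no filter), 2 (both-array, 4-fold) and 10 (1.5-fold), and downwards, 12 as reported, became 19 (1.5-fold) and 3 (4-fold). The percentage of all symbols that reached the limit upwards, 1.45 as reported, became 2.95 (quantile), 3.59 (spike-in), 0.524 (normexp), 2.62 (no filter), 9.54 (1.5-fold) and 0.0996 (4-fold), and downwards, 5.58 as reported, became 3.07 (normexp), 10.8 (1.5-fold) and 1.25 (4-fold). For 4-OHT + lutein against 4-OHT, the number of pathway genes that reached the limit upwards, 2 as reported, became 1 (quantile, probe mean), 0 (normexp, 4-fold), 8 (no filter) and 7 (1.5-fold), and downwards, 3 as reported, became 1 (spike-in, normexp), 7 (no filter), 12 (1.5-fold) and 0 (4-fold). The percentage of all symbols that reached the limit upwards, 0.882 as reported, became 0.254 (normexp), 0.284 (both-array), 3.24 (no filter), 3.28 (1.5-fold) and 0.221 (4-fold), and downwards, 1.68 as reported, became 0.628 (normexp), 3.43 (no filter), 5.34 (1.5-fold) and 0.100 (4-fold). For 4-OHT + vitamin E against vehicle, the interferon response genes' median log2 difference, -0.01 as reported, became 0.20 (probe mean). The number of pathway genes that reached the limit upwards, 5 as reported, became 3 (normexp), 2 (both-array, 4-fold), 8 (no filter) and 12 (1.5-fold), and downwards, 2 as reported, became 1 (quantile, spike-in, both-array), 0 (normexp, 4-fold) and 6 (no filter, 1.5-fold). The percentage of all symbols that reached the limit upwards, 1.11 as reported, became 0.44 (normexp), 2.3 (no filter), 4.8 (1.5-fold) and 0.149 (4-fold), and downwards, 1.28 as reported, became 0.345 (normexp), 0.699 (both-array), 3.06 (no filter), 4.66 (1.5-fold) and 0.189 (4-fold). For 4-OHT + lutein against vehicle, the number of interferon response genes that reached the limit upwards, 1 as reported, became 2 (no filter, 1.5-fold) and 0 (4-fold), while their median log2 difference, 0.54 as reported, became 0.26 (no filter). The number of pathway genes that reached the limit upwards, 10 as reported, became 17 (no filter), 22 (1.5-fold) and 2 (4-fold), and downwards, 2 as reported, became 0 (normexp, 4-fold), 1 (both-array) and 6 (no filter). The percentage of all symbols that reached the limit upwards, 3.41 as reported, became 1.8 (normexp), 5.43 (no filter), 9.12 (1.5-fold) and 0.759 (4-fold), and downwards, 1.5 as reported, became 0.678 (normexp), 2.85 (no filter), 5.54 (1.5-fold) and 0.183 (4-fold). For 4-OHT + vitamin E against 4-OHT + lutein, the number of interferon response genes that reached the limit downwards, 0 as reported, became 1 (no filter) and 2 (1.5-fold), while their median log2 difference, -0.58 as reported, became -0.40 (no filter). The number of pathway genes that reached the limit upwards, 3 as reported, became 0 (both-array) and 5 (1.5-fold), and downwards, 7 as reported, became 4 (normexp), 13 (no filter), 18 (1.5-fold) and 2 (4-fold). The percentage of all symbols that reached the limit upwards, 0.385 as reported, became 0.628 (quantile), 0.135 (normexp), 0.143 (both-array), 1.54 (no filter), 2.12 (1.5-fold) and 0.0742 (4-fold), and downwards, 2.88 as reported, became 1.19 (normexp), 1.84 (both-array), 5.3 (no filter), 6.69 (1.5-fold) and 0.661 (4-fold).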
